A study of Mus musculus with 8 samples.

Results

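The replication-dependent histone genes supply most of the core histone protein that packages new DNA in dividing cells. They were taken here as every array probe whose platform gene symbol begins with H2ac, H2bc, H3c or H4c followed by a number, which gave 51 of 24613 probes, for 42 of the 59 mouse genes that carry such a symbol in the RefSeq gene table. By class there were 12 H2A probes (12 genes), 16 H2B probes (13 genes), 12 H3 probes (7 genes) and 11 H4 probes (10 genes). On chromosome 13, in the cluster older annotations call Hist1, lay the genes of 43 probes, and those of the other 8 lay on chromosome 3, in the cluster called Hist2. The rule used only names, so within it no measured value chose a probe, but it was set with earlier results of these data known.

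The study compared 4 arrays of NS5 cells, a mouse neural stem cell line kept in growth factors, with 4 arrays of astrocytes made from the same line over 3 days in medium that lacked those factors and held 5% fetal calf serum. The labels name no transgene or mutation and describe the product as GFAP-positive, and they call the 4 samples of each group biological replicates, all of 1 cell line. Total RNA was amplified and biotin-labelled with the Illumina TotalPrep kit and read on a 1-colour bead array. Serum and the withdrawal of growth factors were applied together and cannot be told apart. Gfap, the intermediate filament protein of astrocytes, stayed within background in all NS5 samples and reached 2320.2 ± 944 (SD, n = 4) in astrocytes in scanner units, at least 16.7-fold higher (adjusted p = 1.10e-10).

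Nucleosomes are built from an H3-H4 tetramer and a pair of H2A-H2B dimers, so the classes are needed together during DNA synthesis. In dividing cells the replication-dependent genes are switched on in S phase, and their mRNAs usually end in a stem-loop in place of a poly(A) tail. The amplification kit starts from poly(A) tails, so a signal here reports RNA that could be primed in that way, and RNA ending in the stem-loop alone may be missed. Some of these genes are also known to give polyadenylated mRNA. Which end the detected RNA had was not measured.

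The H2A and H2B genes of these clusters mostly lie in pairs, head to head across a short shared gap. The DNA between the annotated starts of both genes is shown for 4 pairs in which the H2A gene was lower and the H2B gene higher in astrocytes. These pairs were picked by that outcome and no gap of another pair is shown, so the matches cannot be tied to the direction of change. Sequences are from RefSeq (GRCm38.p6, plus strand), with capitals for each match, on either strand, to the octamer ATTTGCAT, to the CCAAT box or to the TATA box, searched as TATAAA. A match on the minus strand appears as its reverse complement, so that a CCAAT box then reads ATTGG.
H2bc13 to H2ac13, chr13:21716184-21716411: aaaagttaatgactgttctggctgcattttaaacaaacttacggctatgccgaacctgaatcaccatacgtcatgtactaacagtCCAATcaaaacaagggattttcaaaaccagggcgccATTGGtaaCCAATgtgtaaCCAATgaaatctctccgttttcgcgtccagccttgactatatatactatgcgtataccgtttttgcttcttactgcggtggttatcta
H2ac22 to H2bc22, chr13:21787249-21787482: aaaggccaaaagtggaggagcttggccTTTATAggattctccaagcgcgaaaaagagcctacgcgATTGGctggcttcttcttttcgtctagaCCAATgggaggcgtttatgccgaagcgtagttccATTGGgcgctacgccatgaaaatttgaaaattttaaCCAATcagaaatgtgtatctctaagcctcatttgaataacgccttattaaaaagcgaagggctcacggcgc
H2ac12 to H2bc12, chr13:22035644-22035820: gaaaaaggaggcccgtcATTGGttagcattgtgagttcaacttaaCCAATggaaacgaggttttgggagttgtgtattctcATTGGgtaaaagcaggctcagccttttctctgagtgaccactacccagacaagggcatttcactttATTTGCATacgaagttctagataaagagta
H2ac8 to H2bc8, chr13:23571221-23571399: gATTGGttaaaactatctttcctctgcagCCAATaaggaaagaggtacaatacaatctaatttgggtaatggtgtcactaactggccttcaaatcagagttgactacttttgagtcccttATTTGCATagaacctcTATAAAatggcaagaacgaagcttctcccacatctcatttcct
The first and second gaps held 4 CCAAT matches each, and the second also 1 TATA match. The third held 1 octamer and 3 CCAAT matches, and the last 1 octamer, 2 CCAAT and 1 TATA match. The same letters were then looked for on both strands of the 250 bases before the annotated start of each gene, which RefSeq gave for 38 of the 42 genes. CCAAT was found in 12 of 12 H2A and 11 of 11 H2B windows, in 5 of 6 H3 windows and in 3 of 9 H4 windows, against 33.8% of all 32851 promoters in the RefSeq table. The octamer was in 6 H2A windows (50%) and 4 H2B windows (36.4%), in none of the 6 H3 or 9 H4 windows, and in 1.6% of all promoters. TATAAA was in 6 H2A, 7 H2B, 3 H3 and 4 H4 windows and in 12.4% of all promoters. Windows of paired genes overlap, so an H2A and an H2B gene can share the same match. Where the gap is shorter than 250 bases, a window also reaches into the neighbouring gene, and a match can lie there. The H2bc12 window held TATAAA, for example, while the 177 bases between it and H2ac12 held 0 such matches. A match describes letters only and is not evidence of binding.

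Across all 51 probes, 24 were higher in astrocytes (47.1%) and 12 lower (23.5%), with 15 not called, at an adjusted p under 0.05 in limma over all 24613 probes. Of all probes on the array, 15.1% were called higher and 15.8% lower. By class, H2A was mostly lower, H2B and H4 mostly higher, and H3 mostly not called; no test between classes was made. Signals on the 4 arrays of one group lay wholly beyond those of the other for 34 of the 51 probes (66.7%), against 31.1% of all probes. This separation and the calls come from the same values, so it is no separate support for a call, here or by class. The change was at least 2-fold on the fitted scale for 19 of the higher and 7 of the lower probes. The median log2 fold change was 0.22 for the 51 probes and -0.01 for all probes. Over the 51 probes it was 0.43 with the authors' deposited log2 values and 0.64 for those above the array median. Because the samples are bulk RNA, fewer cells carrying a transcript and less of it per cell cannot be told apart in any of these differences.

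**Figure D1:**
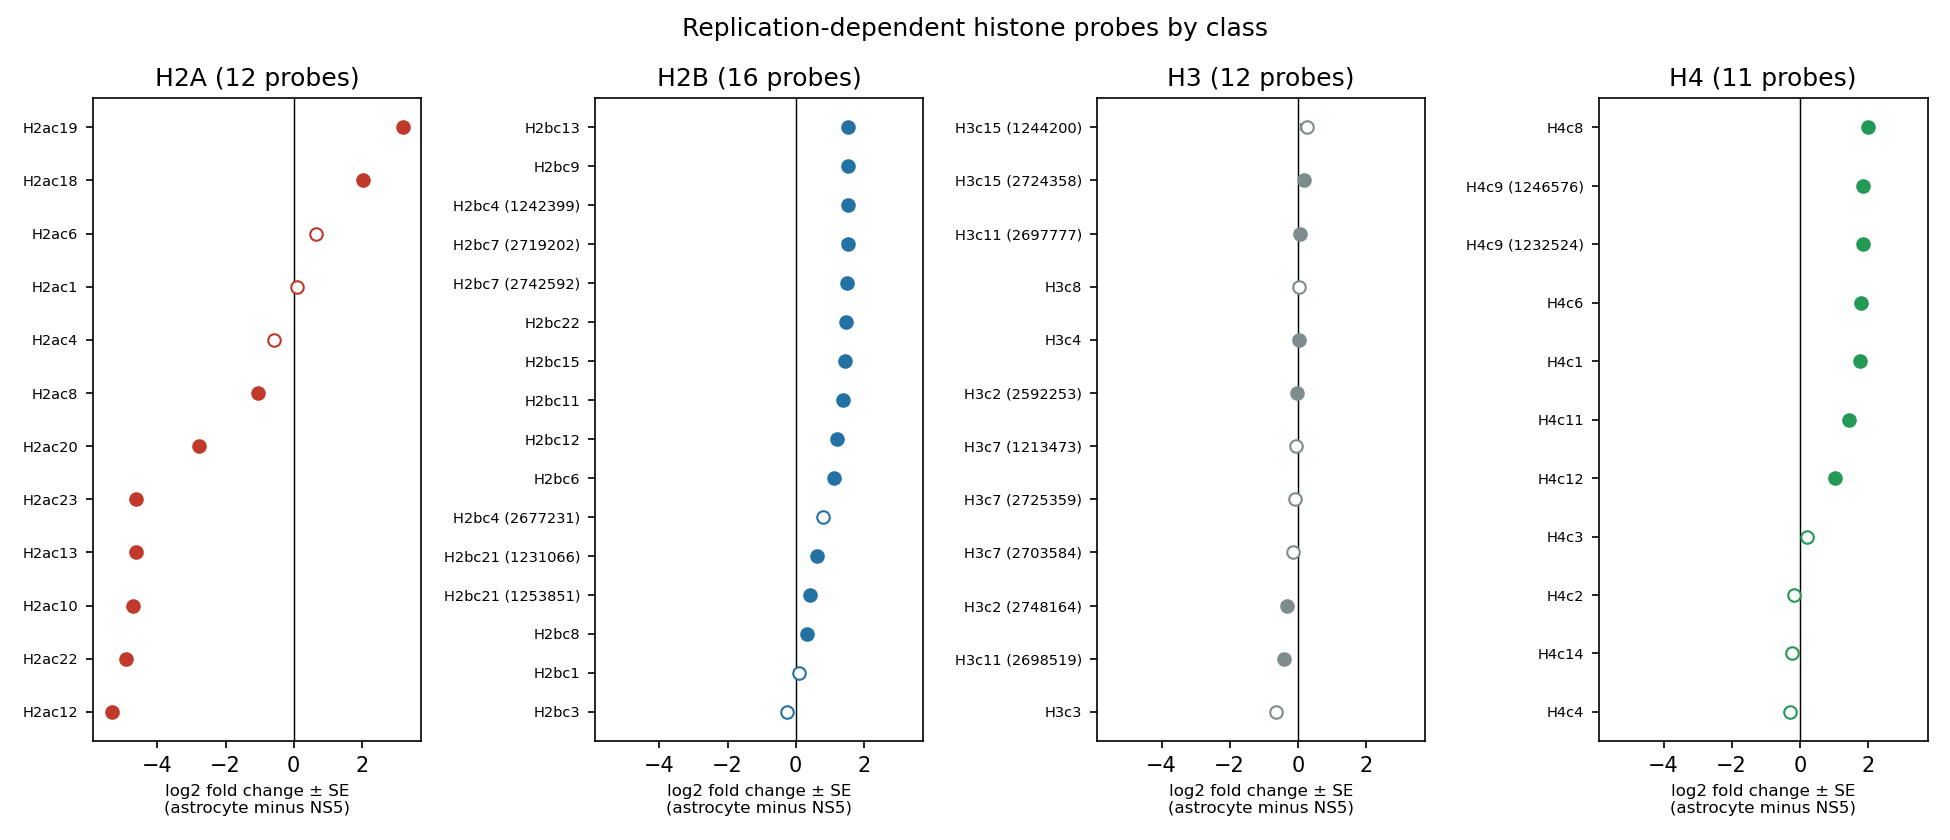
Log2 fold change (astrocyte minus NS5) of each of the 51 probes with its standard error, in 1 panel per histone class. Filled points are probes above background on all 8 arrays and open points the others. H2A spans -5.33 to 3.20, H2B -0.26 to 1.54, H3 -0.64 to 0.26 and H4 -0.30 to 1.99, with 7 H4 probes at 1.04 or above and 4 at 0.22 or below.

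A probe was called above background on an array when its raw signal passed a limit of 35.4 to 39.8 scanner units, set per array from the spread of its negative signals. By this limit 35 of the 51 probes were above background on all 8 arrays, 7 on none and 9 on some. Brighter probes were called more often on the array as a whole: of the 9530 probes above background on all 8 arrays, 2906 were called lower and 2544 higher. Signals below are quantile-normalized, in scanner units, with NS5 replicates 1 to 4 first, and a probe's signal also depends on how well it binds, so levels are compared between groups and not between probes. Fold changes are on the scale of log2(signal + 99.01), which understates changes of dim probes.

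H2A genes went in both directions. H2A forms a dimer with H2B, and 8 of its 12 probes were lower in astrocytes (66.7%), 3 were higher (25%) and 1 was not called, with a median log2 fold change of -1.91. Lower probes led in size: 5 H2A probes of chromosome 13 fell by more than 4 on the log2 scale. Only 16 of the 9530 probes above background on all arrays fell that far, and these 5 were among them. H2ac18 and H2ac19 of chromosome 3 rose. The class median was -2.55 with the authors' deposited log2 values and -3.70 over probes above the array median.

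The largest fall was that of H2ac12, which read 16120.4, 19898, 14614 and 17821 on the NS5 arrays and 397, 274, 415 and 247 on the astrocyte arrays. The difference on the log2 scale was -5.33 ± 0.14 (SE, adjusted p = 1.99e-12). Mean signals, 17113 ± 2272 in NS5 cells and 333 ± 85.3 in astrocytes (SD, n = 4), were 51.3-fold apart. H2ac22, in the same cluster, read 36815, 36383, 27187 and 30348 on the NS5 arrays and 964, 941, 1110.4 and 871 on the astrocyte arrays, a log2 change of -4.93 ± 0.11 (SE, adjusted p = 6.32e-13). No astrocyte array came near any NS5 array for these genes, and the same was true of the next 3.

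H2ac10 read 25514, 29118, 23953 and 24479 on the NS5 arrays and 819, 957, 946 and 796 on the astrocyte arrays (log2 change -4.72 ± 0.10, adjusted p = 2.82e-13). H2ac13 read 36383, 39017, 34709 and 36383 on the NS5 arrays and 1317, 1405, 1567 and 1242 on the astrocyte arrays (log2 change -4.63 ± 0.09, adjusted p = 2.29e-13). H2ac23 read 34369, 34709, 27576 and 31606 on the NS5 arrays and 1084, 1184, 1368 and 1149 on the astrocyte arrays (log2 change -4.63 ± 0.10, adjusted p = 4.71e-13). The 5 genes had mean signals of 17113 to 36623 in NS5 cells and 333 to 1383 in astrocytes, between 26.5-fold and 51.3-fold lower. The coding sequences of these genes are known to be closely similar. The probe sequences were not among the files used here, so how far each probe tells its gene from the other copies was not tested, and these 5 falls may not be 5 separate measurements. The same limit holds for every class.

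H2ac20, of chromosome 3, the H2A probe of highest signal in NS5 cells, read 39017, 43139, 32636 and 35901 on the NS5 arrays and 4834, 6144, 5568 and 5207 on the astrocyte arrays, a log2 change of -2.77 ± 0.11 (SE, adjusted p = 8.40e-11). Its mean was 6.93-fold lower, a smaller fall than those of the 5 genes above. H2ac8 was dimmer and read 242, 299.9, 236 and 273 on the NS5 arrays and 67.4, 76.3, 78.8 and 75.0 on the astrocyte arrays (log2 change -1.06 ± 0.09, adjusted p = 1.95e-07). H2ac4 read 83.4, 91.8, 46.4 and 56.2 on the NS5 arrays and 15.6, 9.15, 18.5 and 11.2 on the astrocyte arrays, above background on the 4 NS5 arrays and on no astrocyte array, so its fall was at least 1.24-fold (adjusted p = 3.39e-04). Of the 12 H2A probes, 8 had every astrocyte array below every NS5 array and 3 had every one above. That is 91.7% separated, against 31.1% of all probes in either direction. The 8 were those called lower.

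The probes that rose included both neighbouring chromosome 3 genes. H2ac19 read 713, 745, 520.4 and 713 on the NS5 arrays and 6326, 7087, 6496 and 7902 on the astrocyte arrays, a log2 change of 3.20 ± 0.11 (SE, adjusted p = 3.67e-11) and a 10.3-fold higher mean signal, and it was the H2A probe of highest signal in astrocytes. H2ac18 read 218, 189.8, 122 and 179 on the NS5 arrays and 925, 1110.4, 917 and 1169.9 on the astrocyte arrays (log2 change 2.04 ± 0.12, adjusted p = 6.77e-09). H2ac6, of chromosome 13, read 14.5, 4.82, 5.04 and -14.3 on the NS5 arrays and 51.7, 55.0, 78.8 and 61.0 on the astrocyte arrays, above background only on the astrocyte arrays and so at least 1.16-fold higher (adjusted p = 1.14e-04). None of these 3 genes overlapped between groups. The testis-type gene H2ac1 was above background on no array and was not called (adjusted p = 0.610).

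**Figure D2:**
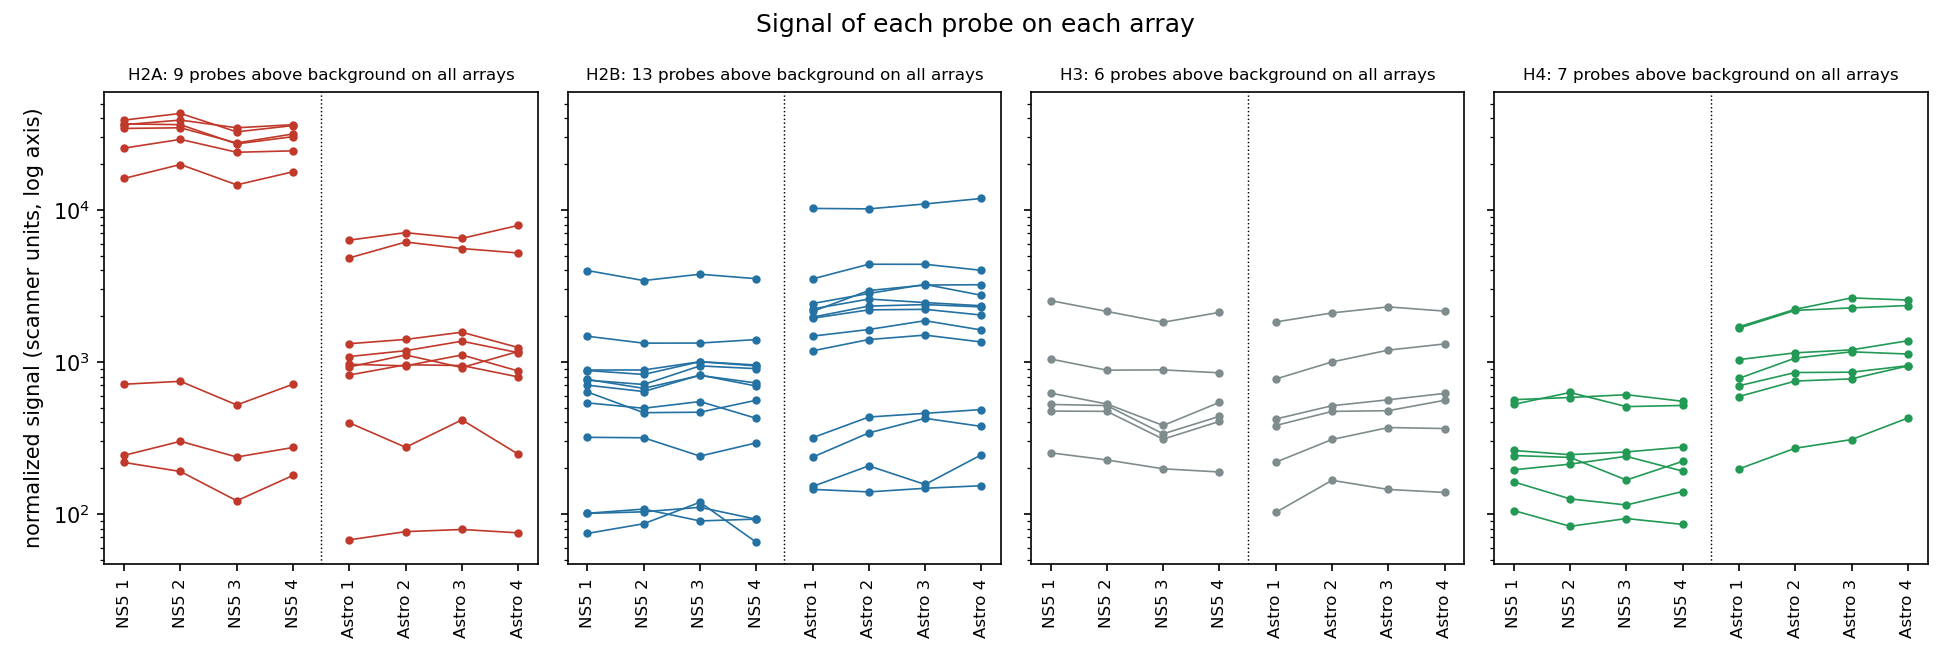
Normalized signal (scanner units, log axis) on each of the 4 NS5 and 4 astrocyte arrays for the 35 probes above background on all 8 arrays, 1 panel per class. Each line joins the arrays of 1 probe within a group and implies no order. H2A probes split, with 5 dropping from 14614 or more to 1567 or less, while H2B and H4 probes shift upwards and the H3 signals cover similar ranges in both groups.

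Most H2B probes rose. H2B is the partner of H2A in the dimer, and 14 of its 16 probes were higher in astrocytes (87.5%), 1 was lower and 1 not called, with a median log2 fold change of 1.30. All 13 H2B probes above background on every array were higher. The higher probes lay between 0.32 and 1.54 on the log2 scale.

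H2bc13 had the largest log2 fold change of the class and read 537, 495, 548 and 425 on the NS5 arrays and 1477, 1633, 1866 and 1621 on the astrocyte arrays, a log2 change of 1.54 ± 0.10 (SE, adjusted p = 1.72e-08). H2bc9 read 702, 638, 818 and 693 on the NS5 arrays and 1968, 2327, 2382 and 2299 on the astrocyte arrays (log2 change 1.53 ± 0.10, adjusted p = 1.43e-08). H2bc4, with the H2B probe of highest signal in both groups, read 3989.6, 3429, 3772 and 3527 on the NS5 arrays and 10227, 10158, 10943 and 11891 on the astrocyte arrays (log2 change 1.53 ± 0.09, adjusted p = 6.45e-09). These 3 rose by nearly the same amount, with mean signals 3.29-fold, 3.15-fold and 2.94-fold higher. The second probe of H2bc4 was dim and read -11.0, -0.108, 0.604 and 5.81 on the NS5 arrays and 61.8, 67.7, 86.6 and 75.4 on the astrocyte arrays, above background only in astrocytes and at least 1.25-fold higher (adjusted p = 3.88e-06).

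H2bc7 had a pair of probes, both called higher. The first read 877, 826, 1003 and 953 on the NS5 arrays and 2419.6, 2819, 3234 and 2743 on the astrocyte arrays (log2 change 1.51 ± 0.10, adjusted p = 2.59e-08). The second read 884, 884, 1002 and 941 on the NS5 arrays and 2146, 2946, 3202 and 3218 on the astrocyte arrays (log2 change 1.52 ± 0.12, adjusted p = 1.47e-07). Both placed every astrocyte array above every NS5 array. H2bc22 read 1474, 1328, 1329 and 1402 on the NS5 arrays and 3515, 4389.6, 4386 and 4002 on the astrocyte arrays (log2 change 1.49 ± 0.09, adjusted p = 1.35e-08). H2bc15 read 758, 709.8, 940.4 and 902 on the NS5 arrays and 2229, 2589.8, 2456 and 2339.5 on the astrocyte arrays (log2 change 1.44 ± 0.10, adjusted p = 3.90e-08). H2bc11 read 766, 669, 814 and 726 on the NS5 arrays and 1937, 2199, 2216 and 2032 on the astrocyte arrays (log2 change 1.38 ± 0.09, adjusted p = 1.72e-08). These genes all lie on chromosome 13, and none overlapped between groups.

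H2bc12 read 634, 463, 466 and 559 on the NS5 arrays and 1182, 1402, 1499.6 and 1351 on the astrocyte arrays (log2 change 1.22 ± 0.11, adjusted p = 4.75e-07). H2bc6 read 101, 103, 110.3 and 92.1 on the NS5 arrays and 236, 341, 425 and 376 on the astrocyte arrays (log2 change 1.13 ± 0.12, adjusted p = 3.49e-06), and by mean signal it rose 3.39-fold, more than H2bc13; with the authors' deposited log2 values its change (1.73) and that of the dim H2bc4 probe (2.85) were also above that of H2bc13 (1.72). H2bc8 read 101, 107, 89.8 and 92.2 on the NS5 arrays and 145, 139, 147 and 153 on the astrocyte arrays (log2 change 0.32 ± 0.08, adjusted p = 0.00532), the smallest rise without overlap. On chromosome 3, H2bc21 was read by a pair of probes, both called higher. The first read 319, 316, 239.8 and 293 on the NS5 arrays and 317, 433, 458 and 485 on the astrocyte arrays (log2 change 0.41 ± 0.11, adjusted p = 0.0126), and its lowest astrocyte array lay within the NS5 range. The second read 74.3, 86.0, 119 and 65.0 on the NS5 arrays and 151, 207, 156 and 245 on the astrocyte arrays (log2 change 0.64 ± 0.12, adjusted p = 7.35e-04), without overlap. With the authors' deposited log2 values in place of the intensities, the first was no longer called (adjusted p = 0.0571).

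H2bc3 read -5.15, -7.88, -9.42 and -10.5 on the NS5 arrays and -28.0, -26.1, -21.1 and -16.4 on the astrocyte arrays. It was called lower (adjusted p = 0.0288) but was above background on no array, so the size of the difference is not interpreted, and the call was lost in 10 of the 15 alternative analyses that held it. The testis-type gene H2bc1 was above background on 1 NS5 and 2 astrocyte arrays and was not called (adjusted p = 0.593).

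H3 genes mostly missed the threshold. H3 forms the tetramer with H4, and of its 12 probes 2 were lower and 10 not called, with a median log2 fold change of -0.05. No H3 probe was called higher by limma, and at an unadjusted p under 0.05 the count was 3 lower and 0 higher. Of the 12 probes, 6 were above background on all 8 arrays.

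H3c2, with the H3 probe of highest signal in both groups, read 2530.1, 2147, 1822 and 2117 on the NS5 arrays and 1830.0, 2099.7, 2299 and 2158 on the astrocyte arrays, a log2 change of -0.03 ± 0.11 (SE, adjusted p = 0.880). Its second probe read 474, 472, 310.0 and 406 on the NS5 arrays and 219, 308, 369.5 and 364 on the astrocyte arrays (log2 change -0.32 ± 0.14, adjusted p = 0.109). The groups overlapped on both. That second probe was called lower with the arrays centred on their medians (log2 change -0.38, adjusted p = 0.0366) and without NS5 replicate 3 (-0.42, adjusted p = 0.0298).

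H3c11 was read by a pair of probes with different outcomes. One read 252, 226, 198 and 188 on the NS5 arrays and 102, 166, 145 and 138 on the astrocyte arrays, a log2 change of -0.41 ± 0.10 (SE, adjusted p = 0.00586), and was lower without overlap. The other read 525, 515, 336 and 438 on the NS5 arrays and 381, 472, 477 and 558 on the astrocyte arrays (log2 change 0.05 ± 0.13, adjusted p = 0.827), with overlap. H3c4 read 623, 528, 381 and 541 on the NS5 arrays and 420.5, 514, 563 and 620.0 on the astrocyte arrays (log2 change 0.03 ± 0.13, adjusted p = 0.909), also with overlap.

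On chromosome 3, the brighter probe of H3c15 read 1044, 882, 885 and 847 on the NS5 arrays and 771, 999, 1195 and 1312 on the astrocyte arrays (log2 change 0.19 ± 0.13, adjusted p = 0.376), and its astrocyte arrays ran from below to above all NS5 arrays. Leaving out astrocyte replicate 1, the lowest of them, raised the log2 change to 0.32 (adjusted p = 0.0417). The other H3c15 probe read -35.7, -47.0, -16.9 and -35.1 on the NS5 arrays and -40.0, -20.0, 9.76 and -29.0 on the astrocyte arrays, above background on no array. H3c3 read 35.5, 48.8, 27.0 and 1.02 on the NS5 arrays and -16.5, -21.8, -26.3 and -6.83 on the astrocyte arrays and was called lower (adjusted p = 7.07e-04). It was above background on 1 NS5 array alone, so no size is given, and with the authors' deposited log2 values it was no longer called (adjusted p = 0.0848). H3c7 had 3 dim probes. They read 43.7, 30.5, 33.7 and 40.8 on the NS5 arrays and 25.5, 27.8, 30.7 and 12.1 on the astrocyte arrays, then 14.8, 3.10, 17.5 and 25.3 on the NS5 arrays and -3.71, 26.4, 4.83 and 10.2 on the astrocyte arrays, and last -23.7, -11.6, -29.3 and -28.2 on the NS5 arrays and -21.0, -24.7, -35.8 and -24.7 on the astrocyte arrays. They were above background on 2 NS5 arrays at most and on no astrocyte array. The H3c8 probe was above background on no array. None of these 4 dim probes of H3c7 and H3c8 was called.

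Most H4 probes rose. H4 completes the tetramer with H3, and 7 of its 11 probes were higher in astrocytes (63.6%), 1 was lower and 3 were not called, with a median log2 fold change of 1.44. All 7 H4 probes above background on every array were higher, by 1.04 to 1.99 on the log2 scale. All of them belong to chromosome 13.

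The largest rise was that of H4c8, which read 162, 125, 114 and 140.2 on the NS5 arrays and 696, 851, 855 and 943 on the astrocyte arrays, a log2 change of 1.99 ± 0.10 (SE, adjusted p = 1.69e-09) and a 6.17-fold higher mean signal. H4c9 was read by a pair of probes, both called higher. The first read 261, 245, 255 and 275 on the NS5 arrays and 1035, 1146, 1199 and 1376 on the astrocyte arrays (log2 change 1.84 ± 0.09, adjusted p = 1.51e-09). The second read 195, 212, 239 and 191 on the NS5 arrays and 779, 1058, 1164 and 1126 on the astrocyte arrays (log2 change 1.86 ± 0.11, adjusted p = 1.23e-08). No astrocyte array of these probes came within the NS5 range.

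H4c6, the H4 probe of highest signal in both groups, read 564, 583, 608 and 550.2 on the NS5 arrays and 1701, 2216, 2636 and 2549.9 on the astrocyte arrays (log2 change 1.80 ± 0.12, adjusted p = 2.74e-08). H4c1 read 525, 629, 508 and 517 on the NS5 arrays and 1667, 2181, 2265 and 2348 on the astrocyte arrays (log2 change 1.78 ± 0.11, adjusted p = 1.47e-08). The rise of these genes was similar in size, with means 3.95-fold and 3.88-fold higher. H4c11 read 242, 235, 167 and 221 on the NS5 arrays and 591, 747, 773 and 940.2 on the astrocyte arrays (log2 change 1.44 ± 0.12, adjusted p = 3.47e-07). H4c12 read 105, 82.7, 93.1 and 85.2 on the NS5 arrays and 197, 270.1, 308 and 427 on the astrocyte arrays (log2 change 1.04 ± 0.14, adjusted p = 3.23e-05). Of the 11 H4 probes, 7 had every astrocyte array above every NS5 array (63.6%) and 0 had every one below, against 31.1% of all probes separated in either direction. The 7 were those called higher.

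H4c4 was called lower, reading 81.4, 73.2, 69.6 and 70.5 on the NS5 arrays and 35.8, 25.7, 35.8 and 73.5 on the astrocyte arrays (log2 change -0.30 ± 0.10, adjusted p = 0.0411). Its highest astrocyte array lay above 3 of the 4 NS5 arrays, only 2 astrocyte arrays were above background, and the call was lost in 9 of 16 alternative analyses. H4c2, H4c3 and the chromosome 3 gene H4c14 were not called, with adjusted p of 0.288, 0.154 and 0.0949. H4c2 was above background on all NS5 arrays and 2 astrocyte arrays, H4c3 on 1 astrocyte array and H4c14 on none.

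By cluster, the 43 chromosome 13 probes gave 20 higher, 11 lower and 12 not called (median log2 fold change 0.10), and the 8 chromosome 3 probes 4 higher, 1 lower and 3 not called (median 0.34). The order of these medians depends on the processing: they were 0.43 for chromosome 13 and 0.36 for chromosome 3 with the authors' deposited log2 values, and 1.04 and 0.52 over probes above the array median. Within chromosome 13 the counts differed by class. There, 7 of 9 H2A probes were lower and 1 higher (median -4.63), 12 of 14 H2B probes were higher and 1 lower (median 1.41), 2 of 10 H3 probes were lower (median -0.07), and 7 of 10 H4 probes were higher and 1 lower (median 1.61). On chromosome 3 the H2A genes went both ways, H2ac20 lower and H2ac18 and H2ac19 higher, while both probes of H2bc21 were higher by less than any H2B probe of chromosome 13 that rose other than H2bc8. The difference between the clusters was not tested.

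**Figure D3:**
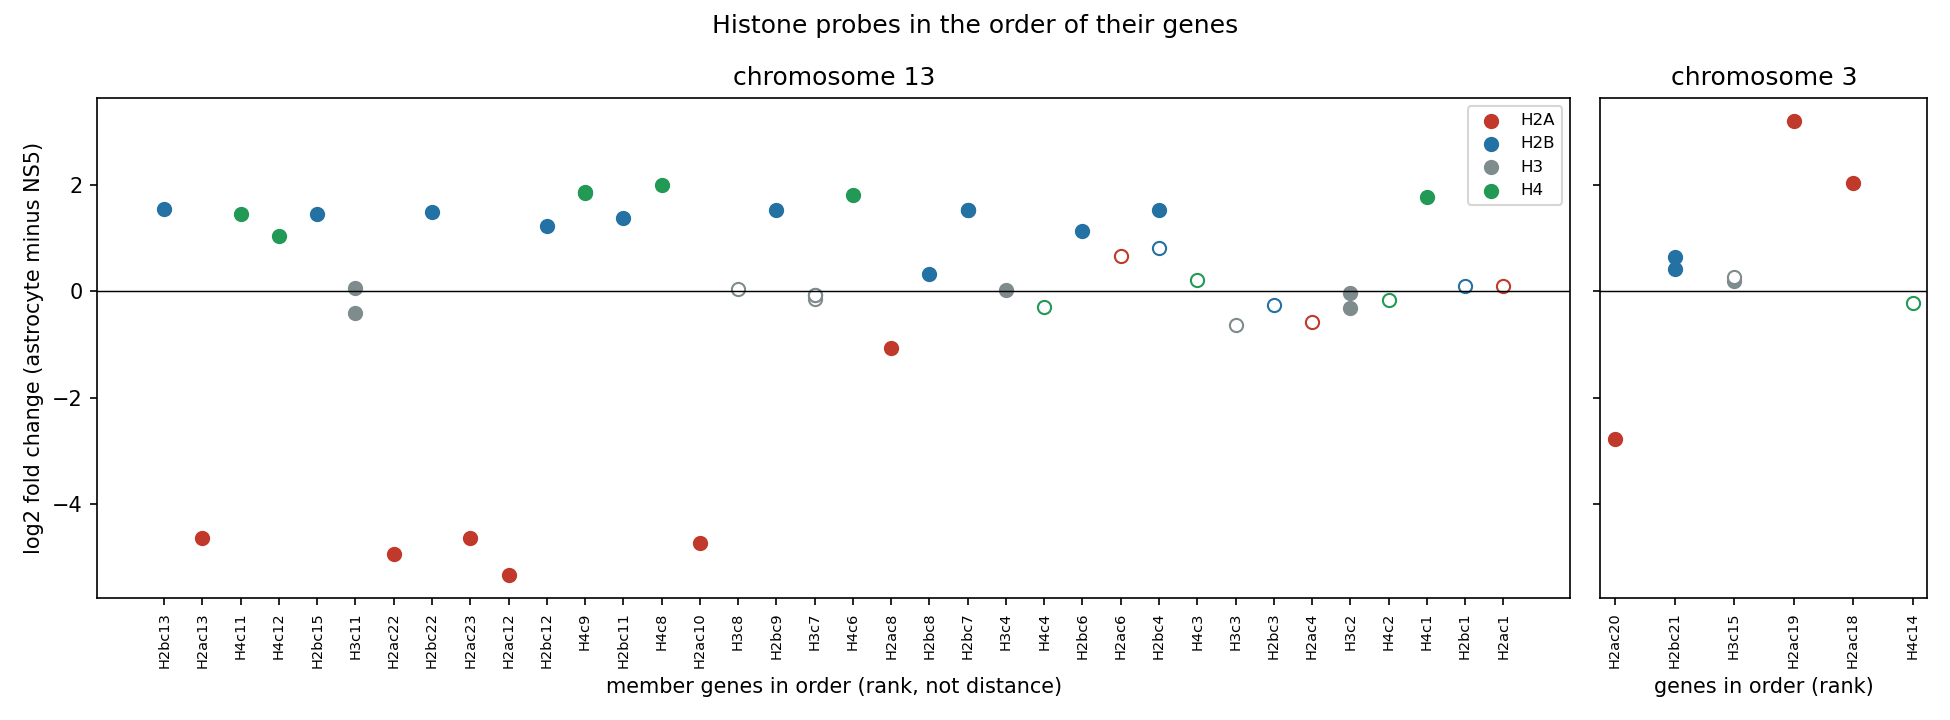
Log2 fold change (astrocyte minus NS5) of each probe against the order of its gene on chromosomes 13 and 3, coloured by class, with open points for probes not above background on all 8 arrays. Positions are ranks among the member genes, not distances. Lower H2A and higher H2B and H4 points are interspersed along chromosome 13 from H2bc13 to H2bc8.

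Opposite changes were found within neighbouring pairs. Of 13 H2A-H2B pairs under 500 bases apart in the RefSeq table, 7 had both genes on the array. In 5 of these the H2A gene was called lower and the H2B gene higher. Over the whole classes, 8 of 12 H2A probes were lower and 14 of 16 H2B probes higher. Such opposite calls may only restate the class directions, and whether neighbours differed from other H2A and H2B genes was not tested. The 5 pairs were H2ac13 with H2bc13 (228 bases between them), H2ac22 with H2bc22 (234 bases), H2ac12 with H2bc12 (177 bases), H2ac8 with H2bc8 (179 bases) and H2ac20 with H2bc21 (191 bases). The first 4 of these pairs are those whose gap sequences are printed above. Across 234 bases, H2ac22 was 33.6-fold lower and H2bc22 was 2.94-fold higher in mean signal. In the pair H2ac6 and H2bc4 (239 bases) both genes were higher, and in the testis-type pair H2ac1 and H2bc1 (280 bases) neither was called.

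**Figure D4:**
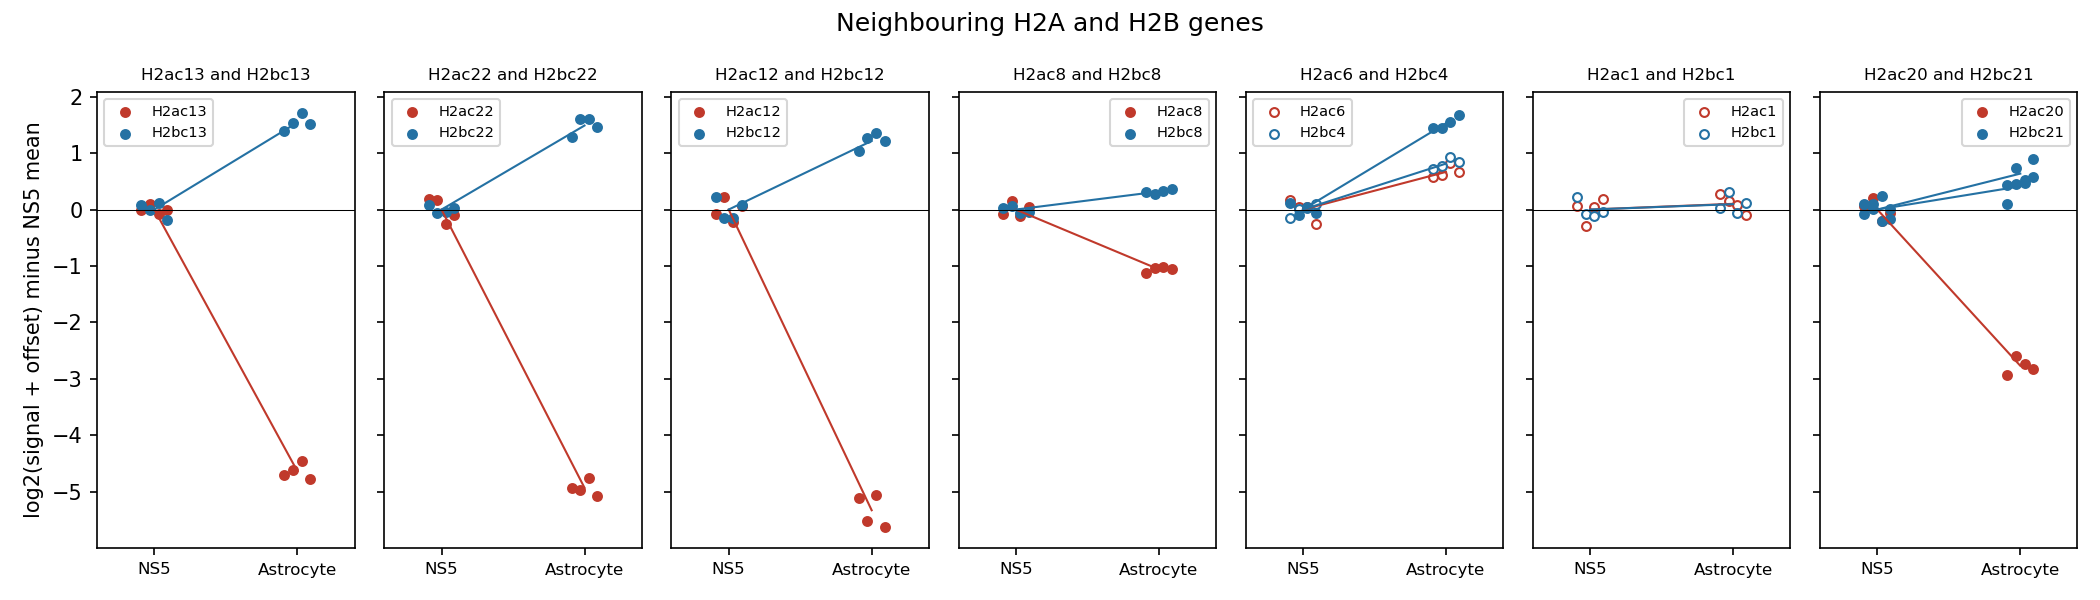
Log2(signal + 99.01) on each array minus the probe's NS5 mean, for the H2A and H2B genes of each neighbouring pair with both genes on the array. Lines run from the NS5 mean to the astrocyte mean, and open points are probes not above background on all 8 arrays. In 5 pairs the H2A line falls while the H2B line rises.

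Other genes of histone supply and of S phase were read from gene lists, with the brightest probe per gene, at a background of 16.3% called lower and 16.3% called higher among 19391 genes and unnamed probes. The lists were drawn up with earlier results of these data known. Genes of DNA synthesis and its control fell: 19 of 21 were lower and none higher (unadjusted count of higher genes also 0 in limma), with a median log2 change of -2.14. Signals fell at least 13-fold for Tk1, which salvages thymidine, and at least 10.8-fold for Rrm2, a ribonucleotide reductase subunit, and the helicase subunit gene Mcm5 went from 6059.6 ± 407 in NS5 cells to 216 ± 34.6 in astrocytes (SD, n = 4), a log2 change of -4.29 ± 0.10 (SE, adjusted p = 5.28e-13).

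Histone chaperones, which carry histones to DNA, also fell: 13 of 17 were lower and none higher (0 at an unadjusted p under 0.05), with a median log2 change of -0.74. Chaf1b and Chaf1a, subunits of the assembly factor CAF-1, changed by -3.98 ± 0.11 (SE, adjusted p = 3.27e-12) and -2.33 ± 0.11 (SE, adjusted p = 7.50e-10) on the log2 scale, each above background on only 2 astrocyte arrays. Nasp, a carrier of H3, H4 and H1, had a log2 change of -1.85 ± 0.11 (SE, adjusted p = 1.17e-08). Asf1a had means of 246 ± 34.9 in NS5 cells and 244 ± 46.9 in astrocytes (SD, n = 4) and was not called.

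Of 6 variant histone genes, which are not tied to replication in the same way or have other roles, 3 were lower and none higher (0 at an unadjusted p under 0.05). The centromere histone gene Cenpa went from 10288 ± 571 in NS5 cells to 115 ± 12.8 in astrocytes (SD, n = 4) (log2 change -5.60 ± 0.08, adjusted p = 4.20e-14), H2ax, whose protein is phosphorylated at DNA breaks, from 1510.2 ± 107 in NS5 cells to 112 ± 24.1 in astrocytes (SD, n = 4) (log2 change -2.94 ± 0.10, adjusted p = 2.54e-11), and H2aj had a log2 change of -0.47 ± 0.09 (SE, adjusted p = 0.00105). H3f3b, a gene for the replacement histone H3.3, had 11298 ± 692 in NS5 cells and 10951 ± 1218 in astrocytes (SD, n = 4) and was not called (adjusted p = 0.787). H2ax and H2aj are H2A genes that the rule does not take in. H2aw, another such gene, was called higher, at least 1.10-fold (adjusted p = 0.00963), and was above background on the 4 astrocyte arrays alone.

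Of 9 linker histone genes, 1 was lower and 1 higher, and 6 were above background on no array. H1f0, the replacement linker histone, went from 319 ± 10.5 in NS5 cells to 160.2 ± 39.7 in astrocytes (SD, n = 4), a log2 change of -0.70 ± 0.11 (SE, adjusted p = 1.07e-04). H1f2, a linker histone gene of the same chromosome 13 cluster, went from 5396 ± 252 in NS5 cells to 11724 ± 766 in astrocytes (SD, n = 4) (log2 change 1.10 ± 0.08, adjusted p = 1.06e-07).

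Of 12 genes that transcribe histone genes or process their mRNA, 2 were lower and none higher at the adjusted threshold (1 higher at an unadjusted p under 0.05). The lower genes were Eri1, an exonuclease that trims histone mRNA ends (log2 change -0.72 ± 0.10, adjusted p = 3.87e-05), and Cpsf2, a subunit of the cleavage complex (log2 change -0.45 ± 0.09, adjusted p = 8.32e-04). Slbp, which binds the stem-loop, and Npat, a coactivator of histone genes, were among 7 genes above background on no array, so these data say nothing of their change.

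**Figure D5:**
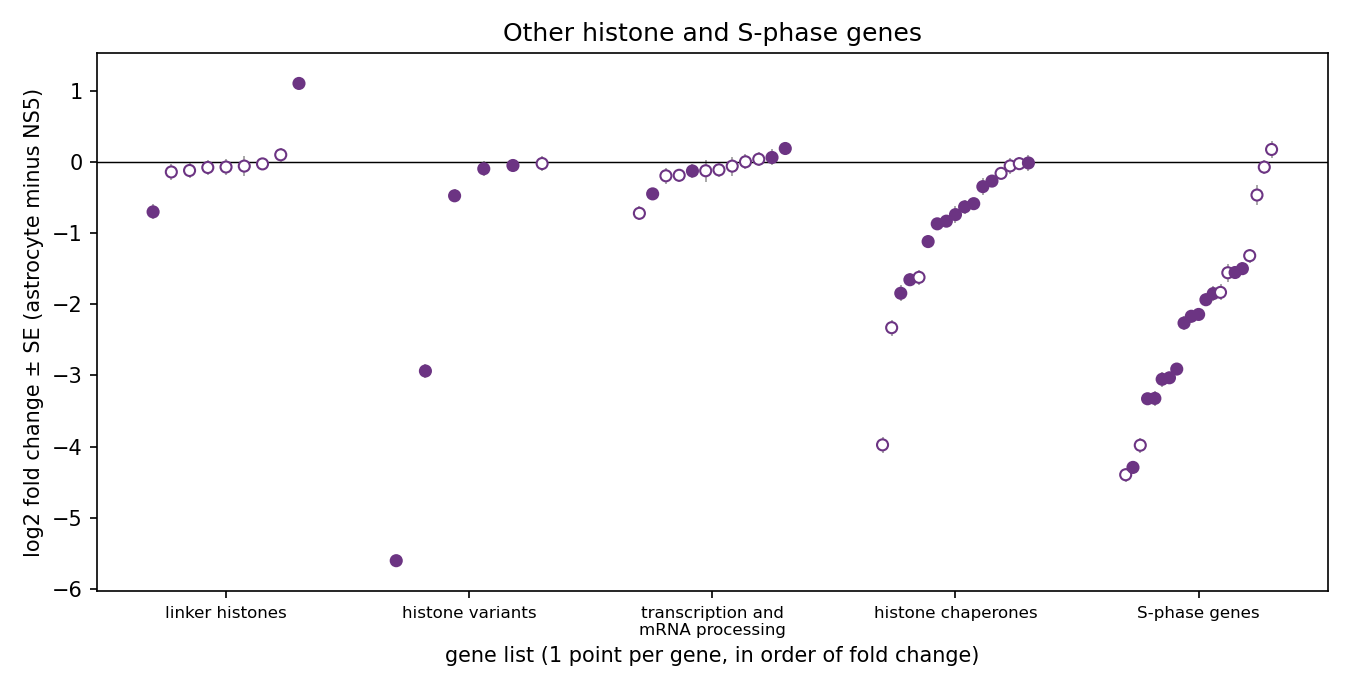
Log2 fold change (astrocyte minus NS5) with standard error of each gene of 5 lists, with the brightest probe per gene in order of fold change and open points for genes not above background on all 8 arrays. The S-phase list has a median of -2.14 and the chaperone list one of -0.74.

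Marker genes of 6 cell types were read in the same way. Of 9 astrocyte marker genes 6 were higher and none lower (unadjusted count of lower genes also 0 in limma), and their summed signal was 10158 to 12996 on NS5 and 41598 to 53947 on astrocyte arrays. Of 8 neural stem cell markers, 3 were higher and 1 lower (sums 20044 to 22873 and 43438 to 44465), with Pax6 above background on no array. Most of these sums was Vim, which went from 18750 ± 894 in NS5 cells to 41521 ± 469 in astrocytes (SD, n = 4). The sums therefore say little of the other genes of that list. Of 8 oligodendrocyte lineage markers, 3 were higher and 2 lower (sums 37349 to 53074 and 14512 to 18101), with Sox10 above background on no array. Here most of the sums was Olig1, which went from 42643 ± 7087 in NS5 cells to 14622 ± 1746 in astrocytes (SD, n = 4). Of 7 neuronal markers, 3 were higher and 1 lower (sums 804 to 915 and 805 to 1266). Among the higher genes, Dcx was above background on no array and Syt1 on 2 astrocyte arrays alone. The third, Gad1, overlapped between groups and read 953 on astrocyte replicate 1 against 402 to 485 on the other astrocyte arrays. None of the 6 microglial markers was above background on any array (sums -43.5 to 29.5 and 30.4 to 41.8). Of 6 fibroblast and pericyte markers none was called, and 4 were above background on no array (sums 0.549 to 106 and 1.68 to 92.2). The part of these cell types in the histone differences was not tested.

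Among the 24 higher histone probes, astrocyte replicate 1 was the lowest of its group on 21, whereas over all 3707 higher probes of the array it was the lowest on 37.2%. Without it, 14 H2B and 7 H4 probes were still called higher. Arrays had a median raw signal of 28 to 33, a mean raw signal of 469 to 648 and 46.0% to 47.9% of probes above background. The sources used here give no slide or scan date, so a batch was not tested.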

How the data were processed

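The deposited scanner table holds linear probe intensities for 24613 probes on each of 8 arrays (4 NS5, 4 astrocyte). It contains negative values, so a background had been subtracted before the authors deposited it. Software and method are not given in the sources, and the table has no detection p-value or saturation flag. The authors' deposited value table is on a log2 scale: flooring the intensities at 10, taking log2 and quantile normalizing gave its values to within 4.99e-09. It was used only as an alternative.

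Here, 99.01 was added so that the lowest intensity became 16, log2 was taken, arrays were quantile normalized, and every probe was tested with limma 3.58.1 (R 4.3.3), with Benjamini-Hochberg adjustment over all probes and a threshold of 0.05. Printed signals are the normalized values less that offset, in scanner units. Quantile normalization gives every array the same set of values, so equal values on 2 arrays mean equal ranks. The background limit of an array was 1.64485 times the root mean square of its negative intensities (the normal 95% quantile), tested on raw intensities. Where a probe passed it on no array of one group, the fold change is a bound: the other group's mean against the dim group's mean, with each dim array at the lowest normalized signal above the limit or the probe's own signal if higher. The number of arrays limits precision.

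The platform annotation gave a single symbol for 20984 probes, several for 1 and no entry for 3628. RefSeq (GRCm38.p6) named 687 of the last by accession. Sequences and gene order come from RefSeq; the files name no genome build. Array values are printed, in each class, for the called probes of lowest and highest fold change, the probe of highest signal in each group, all probes called higher and all probes of genes with several; other members may be named too. Of the other lists, the 3 called genes of largest change are named, with members a result turns on. Members and lists were chosen with earlier results of these data known. The labels call the samples biological replicates; nothing further says how separate the cultures were. On simulated data for this comparison over 24613 probes, limma recovered 94 of 100 changes of 1 on the log2 scale and 100 of 100 of 2, with 10 false calls. Only those probes were changed there, with independent noise, whereas 7603 were called in the data, so these counts are not its error rates. Alternatives were another normalization, offset, filter, variance model, array weights, a replicate block, 1 probe per gene, other background limits and each array left out.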

Additional observations from a re-analysis of the deposited data

Results flagged for a closer look

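Of 75 groups of 4 array values tested over the histone probes above background, 2 had an array far from the other 3, by Dixon's test at the 95% level, and chance alone flags about 1 group in 20. In NS5 cells, H2ac19 read 520.4 on replicate 3 against 713 to 745 on the others, and all 4 values were below every astrocyte value. H4c1 read 629 on NS5 replicate 2 against 508 to 525 on the others, also below every astrocyte value.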

How the results depend on the processing

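No fold change of a histone probe changed sign past the threshold in any of 16 alternative fits, and H2A (8 lower, 3 higher), H2B (14 higher) and H4 (7 higher) kept these counts with each array left out. The calls that were lost belong to dim or overlapping probes. The single lower H2B probe, H2bc3, fell out (count 0) with median centring, the authors' log2 values, the lowest intensity raised to 64, the filter on dim probes, a variance trend and the replicate block. The single lower H4 probe, H4c4, fell out (count 0) with the authors' values and the replicate block. Lower H3 probes numbered 1 instead of 2 with the authors' values, the filter and 1 probe per gene, and 1 gene of histone transcription and processing was called higher instead of none with the authors' values, the raised intensity and the filter. With the authors' values the median log2 fold change was 0.43 over all members, -2.55 for H2A, 1.55 for H2B, 1.82 for H4 and 0.43 on chromosome 13; with the filter it was 0.64, -3.70 for H2A, 1.78 for H4 and 1.04 on chromosome 13. With 1 probe per gene the H4 median was 1.24. Leaving out 1 array at a time gave 10 to 12 lower and 24 to 25 higher members, 0 to 1 lower H2B, 0 to 1 lower H4 and 0 to 1 higher H3 probes. Same-numbered arrays correlated at -0.06, 0.04, 0.16 and 0.08 in their deviations, and 2 of 4 NS5 arrays correlated best with their own number. With 4 arrays per group, these correlations cannot decide whether replicate numbers pair the samples. The replicate block took H2bc3 to an adjusted p of 0.0576 and H4c4 to 0.0537. Signal near background limits the dim probes.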
